A study of Mus musculus with 16 samples.

Results

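The loading response of Ctrl tibiae was read from 8 of the 16 libraries of the series: the loaded right tibia and the non-loaded left tibia of each of 4 male Ctrl mice aged 16 weeks. Libraries were chosen by their labels, and the limbs were paired by mouse. Each right tibia had been compressed along its axis once a day on 9 days, at 1200 cycles a day and a strain of -2000 microstrain, which took a peak force of 8.7 N. The tissue was bone around the site of peak strain, taken 4 hours after the last bout from bones freed of muscle and spun to remove marrow. All mice had isoflurane anaesthesia and an opioid, buprenorphine, after loading. The other 8 libraries, from 4 male NT3-Cre+ mice of the same age loaded to the same strain with 10.0 N, enter through a shared fit and a test of whether their loading response differs. By the title of the series, the study concerns NF-kB inducing kinase activated in cells of the bone lineage. The sources used here name neither the allele behind the NT3 label nor the driver of Cre, and they leave the alleles of Ctrl mice unstated. The loaded limb was the right one in every mouse, so loading and body side cannot be told apart.

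Bone adds matrix where it is strained. Osteocytes, the cells buried in bone, sense the strain and change the signals, among them the Wnt inhibitor sclerostin, that reach the osteoblasts on the surface. Osteoblasts lay down a matrix made mostly of type I collagen. Before it is secreted, this collagen is hydroxylated, folded and packed into large carriers in the secretory pathway, and afterwards the matrix is filled with calcium phosphate, a step that starts in vesicles loaded with phosphatases and lipases. The marrow next to the bone makes red cells, granulocytes and lymphocytes.

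The Ctrl libraries held 852831 to 1064391 counted fragments, and a row here is a gene name in the count files with its fragments. Values are counts per 1e+06 fragments of tested rows after scaling by the trimmed mean of M values (CPM). Fold changes are on the log2 scale with a standard error (SE), from edgeR's quasi-likelihood F test with mouse as a block. A row was called at an adjusted p under 0.05 (Benjamini-Hochberg over all 7192 rows tested). The files do not state the strand setting of the counting, and many rows lie across exons of a gene read from the opposite strand: 3888 of the tested rows (54.06%) overlapped such exons by at least 20 bases. Fragments of a row and of the gene opposite cannot be told apart, so each row is given with the gene opposite it. Bone rows were present in every Ctrl library, with 34 to 430 fragments for Col1a1, 59 to 235 for Ibsp and 61 to 161 for Dmp1, while Alpl held 1 to 15, Sp7 0 to 6 and Postn 0 to 8. Marrow and muscle were not absent: the Gm11505 row, opposite the myeloperoxidase gene Mpo, ran from 1743 to 7917 CPM, and the Rabep2 row, opposite the muscle calcium pump gene Atp2a1, from 339 to 3984 CPM. In this bulk tissue, fewer cells of a type and less RNA per cell cannot be told apart.

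The rows higher in loaded limbs included rows named for or lying opposite genes of bone matrix, its processing and its mineral. By name, 7 of 9 tested fibrillar collagen rows were called higher. It was 2 of 14 for collagen processing, 2 of 12 for mineralization and 1 of 19 for matrix proteins other than collagens. Of rows opposite genes of these 3 lists, 5 of 8, 3 of 7 and 6 of 11 were called higher. A smaller set of 72 rows was lower. It included 2 rows opposite a granulocyte marker, 2 opposite a red cell marker and 3 opposite a B cell marker. Rows named for those markers had sums whose means went from 280.4 to 280.3, 488.4 to 542.4 and 375.2 to 414.4 CPM. Rows that rose, such as Mmp8 and Cd72, are part of these sums. By name, 5 of 6 tested granulocyte, 2 of 6 red cell and 3 of 4 B cell rows had a negative log2 change. Among them Mmp8, Alas2 and Cd72 were called higher, and Adgrg3 and Cr2 lower. Of 7192 rows, 221 were called higher (3.07%) and 72 lower (1.00%), and 1061 had an unadjusted p under 0.05. The higher rows had a median log2 change of 1.02 (range 0.41 to 4.76), with 114 above 2-fold and 29 above 4-fold. The lower rows had a median of -0.66 (range -4.65 to -0.37), with 11 below 2-fold, against a median of -0.027 over all rows tested. In 213 of the 221 the change was upward in all 4 mice, and in 182 every loaded limb lay above every non-loaded limb, as in 353 of all tested rows. Of the 72 lower rows, 68 moved down in all 4 mice and 41 did not overlap, as in 233 of all tested rows. Rows opposite a gene made up 151 of the higher (68.33%) and 54 of the lower rows (75%). Without mouse 2 there were 146 higher and 17 lower rows, and the lower count was 40 without mouse 1 and 29 without mouse 3. Of the rows called higher without a given mouse, 162 of 172, 146 of 146, 154 of 158 and 180 of 189 moved upward in mice 1 to 4 when each was the one left out. These are the rows also tested with all mice, which leaves out 1 row each for mice 3 and 4. Of the lower rows, 32 of 40, 15 of 17, 25 of 29 and 48 of 80 moved downward in the mouse left out. Over all tested rows, 48.3% to 50.3% moved upward and 49.6% to 51.7% downward in a mouse, so the 60% for mouse 4 (median change -0.082) was near the share over all rows. With the mean log2 level of 27 marrow marker rows as a covariate, 10 rows were called higher and 5 lower. Of the 10, 9 were among the 221, Abi3, Prmt7, Col1a1 and Ddn included, but none of the 5 was among the 72. The 27 rows include called ones such as Gm11505 and Kcnh7, and 94.1% of the level's variation within mice went with loading. Together the called higher rows took 3.65% to 4.60% of a non-loaded library and 6.33% to 7.55% of a loaded one, and the called lower rows 2.08% to 2.60% and 1.29% to 1.71%. Ribosomal RNA rows did not separate the limbs (exact sign-flip permutation p = 0.625, two-sided, where 4 pairs cannot go below 0.125).

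**Figure D1:**
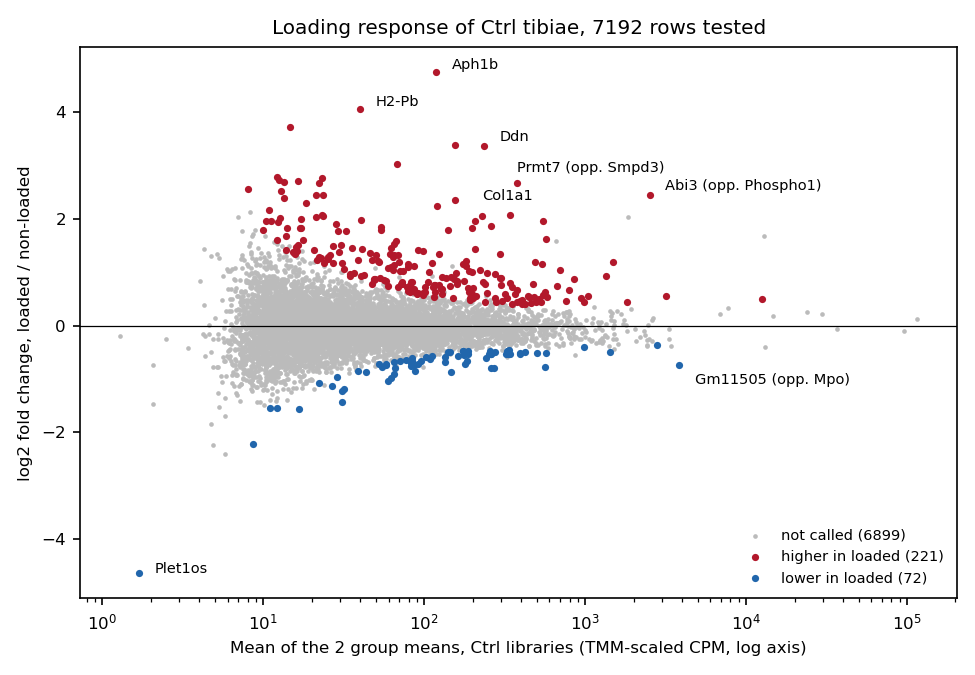
Each point is a tested row, with its mean level in the Ctrl libraries in TMM-scaled CPM on a log axis and its log2 fold change, loaded over non-loaded, on the other axis. The 221 rows called higher (red) reach 4.76 and the 72 called lower (blue) run from -0.37 down to -4.65, the lowest being Plet1os, a row averaging 1.5 fragments.

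Rows opposite genes that start mineral in the matrix were among the rising rows with the smallest p values. The Abi3 row (chr11:95830074-95842476, GRCm38, minus strand) lies opposite Phospho1, the phosphatase of matrix vesicles, and also opposite Zfp652 and Gngt2. It held 839.7, 531, 746 and 1050.1 CPM in the non-loaded tibiae of mice 1 to 4 and 4211, 3127, 4930.4 and 4742 CPM in the loaded ones. The lowest loaded limb was well above the highest non-loaded one, and the row rose 5.44-fold (log2 2.44, SE 0.12, edgeR adjusted p = 1.0e-20). The Prmt7 row (chr8:106210936-106252794) lies opposite Smpd3, the neutral sphingomyelinase whose loss leaves bone poorly mineralized. Its limbs held 116, 68.9, 91.7 and 134 CPM without loading and 745, 515, 683 and 647 CPM with it, again without overlap, a 6.37-fold rise (log2 2.67, SE 0.14, adjusted p = 4.0e-19). The 1700051A21Rik row, opposite the citrate transporter gene Slc13a5, went from 52.9, 23.4, 30.2 and 64.1 to 223, 124, 242 and 206 CPM (log2 2.24, SE 0.20, adjusted p = 4.2e-11). The rows named for Phospho1 (0.13, adjusted p = 0.83) and Smpd3 (0.19, adjusted p = 0.83) averaged 65 and 26.4 fragments and did not pass. The 250 bases before the RefSeq start of Phospho1 (GRCm38.p6, chr11:95824250-95824499, plus strand) are shown because the row opposite this gene had the smallest p; they hold neither TGTGGT, the core letters bound by RUNX factors, nor GATAA, those bound by GATA factors, on either strand.
Phospho1: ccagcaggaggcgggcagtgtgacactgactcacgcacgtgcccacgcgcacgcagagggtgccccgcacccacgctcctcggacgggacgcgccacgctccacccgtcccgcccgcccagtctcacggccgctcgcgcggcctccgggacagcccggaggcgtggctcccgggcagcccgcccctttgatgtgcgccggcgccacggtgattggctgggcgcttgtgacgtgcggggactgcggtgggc

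Among the proteins that bind mineral, the bone sialoprotein row Ibsp was at 136, 68.9, 129 and 84.5 CPM in non-loaded and 280.2, 125, 241 and 189 CPM in loaded limbs. The loaded limb of mouse 2 lay below the non-loaded limbs of mice 1 and 3, so the groups overlapped, but each mouse went up (log2 0.99, SE 0.16, adjusted p = 1.5e-05). Dmp1, a matrix protein of osteocytes, went from 71.7, 92.3, 72.3 and 105 to 109.7, 159, 152 and 141 CPM, without overlap (log2 0.72, SE 0.17, adjusted p = 0.0045). Mepe, its neighbour in the same gene cluster, held 81.1, 107, 137 and 112 CPM and then 85.9, 94.9, 116 and 129 CPM, up in 2 mice and down in 2 (log2 -0.034, adjusted p = 0.96). Fam20c, the kinase that phosphorylates these proteins, had a log2 change of 0.87 that did not pass (adjusted p = 0.11). Over the list of mineralization and phosphate genes, 2 of 12 tested rows by name were called higher (median 0.082), as were 3 of 7 rows opposite a list gene (median 0.45), and none was called lower. Over all tested rows, for this and the lists below, the shares were 3.07% higher and 1.00% lower. The lists were chosen with earlier results of these data known, so their counts are a description only.

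Of the fibrillar collagen rows, 7 of the 9 tested by name were called higher, with a median of 1.54, against 3.07% of all tested rows. Col1a1, the main chain of type I collagen, held 77.6, 39.7, 65.8 and 198 CPM in non-loaded and 337, 284, 334 and 486 CPM in loaded limbs. Mouse 4 was the highest at either state and the groups did not overlap, a 4.18-fold rise (log2 2.06, SE 0.17, adjusted p = 6.3e-12). Its partner chain Col1a2 went from 80.0, 23.4, 59.3 and 97.7 to 248, 152, 234 and 223 CPM (log2 1.79, SE 0.18, adjusted p = 4.6e-10). Col3a1 (log2 1.45), Col5a2 (1.90), Col11a1 (1.98) and Col11a2 (1.54), which encode chains of the thinner fibrils and of those that set fibril width, were called as well. Col24a1 (0.66) and Col27a1 (-0.37) were tested and did not pass.

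At the locus of Col5a1, a gene of the type V collagen that nucleates type I fibrils, 3 rows were called higher. The Gm13372 row (chr2:28025417-28030437, minus strand) held 227, 137, 246 and 298 CPM and then 886, 779.7, 818 and 962 CPM (log2 1.96, SE 0.14, adjusted p = 1.3e-14). The 2810430I11Rik row went from 161, 72.4, 164 and 133 to 612, 386, 529.8 and 657 CPM (log2 2.07, SE 0.13, adjusted p = 2.1e-16). Both lie opposite Col5a1, whose own row averaged 41 fragments and rose by 1.37 (SE 0.26, adjusted p = 0.00037). These rows share a locus and are not separate evidence.

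Of the other collagens, 3 of 15 rows by name were called higher and none lower (median 0.41). They were Col6a2 (log2 2.06, adjusted p = 0.00012) and Col6a3 (2.03, adjusted p = 0.012), chains of the beaded filaments around cells, and Col12a1 (1.67, adjusted p = 0.012), which sits on fibril surfaces. The third chain, Col6a1, had a change of 2.13 and missed the threshold (adjusted p = 0.055). The called rows averaged 11.4 to 21.1 fragments. The Gm15419 row, opposite the basement membrane collagen gene Col4a2, was at 80.0, 56.1, 74.4 and 63.1 CPM and then 157, 126, 164 and 169 CPM (log2 1.17, SE 0.18, adjusted p = 1.2e-05).

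**Figure D2:**
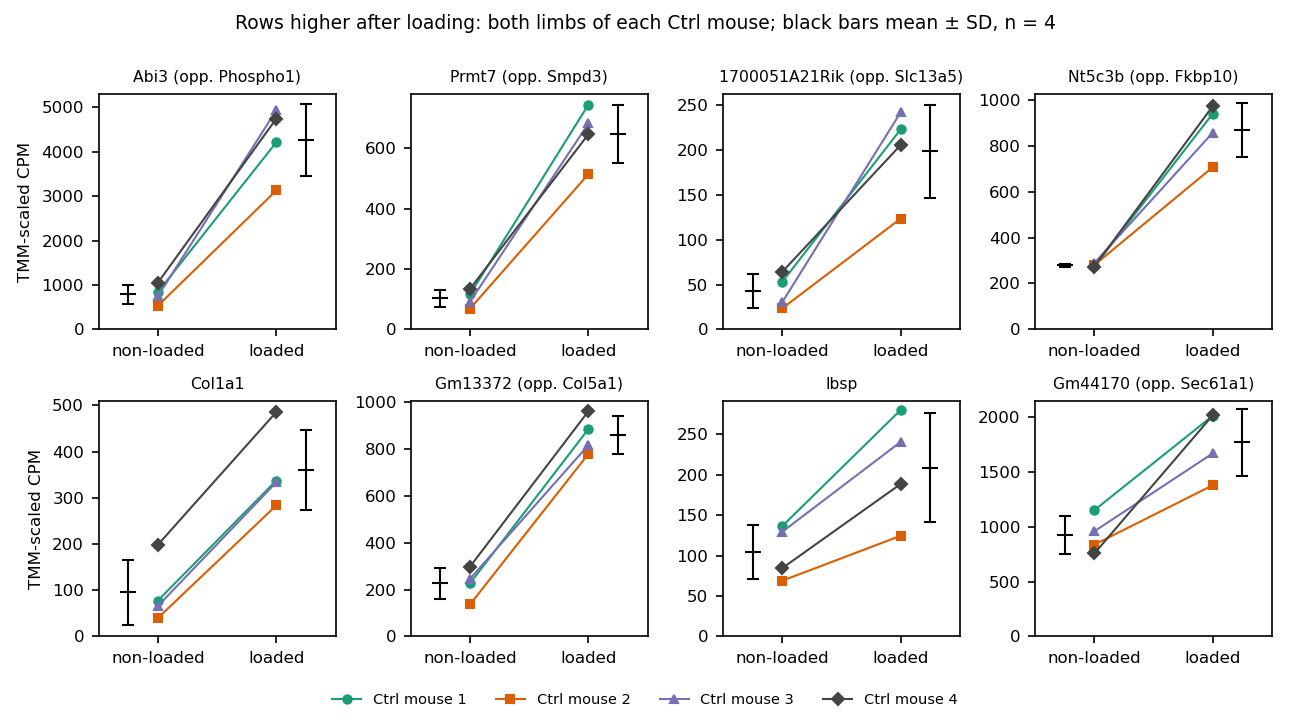
TMM-scaled CPM of 8 rows called higher, with the non-loaded and loaded limb of each Ctrl mouse joined by a line and the mean ± SD of 4 limbs in black. Every line rises, and apart from Ibsp no loaded limb falls to the level of a non-loaded one.

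For enzymes and carriers that ready collagen for export, the rows called higher were mainly those opposite their genes. The Nt5c3b row (chr11:100422321-100441808, minus strand), opposite the collagen chaperone gene Fkbp10, had closely matched non-loaded limbs at 274, 280.3, 289 and 274 CPM and loaded limbs at 939.7, 707, 857 and 972 CPM. It rose 3.09-fold (log2 1.63, SE 0.12, adjusted p = 2.6e-14). The Gm38391 row, opposite the lysyl hydroxylase gene Plod2, went from 299.9, 276, 368 and 384 to 670.2, 578, 921 and 795 CPM (log2 1.15, SE 0.12, adjusted p = 8.9e-10). The Gm17529 row, opposite Sec23a, a coat protein of the vesicles that carry procollagen, held 168, 173, 159 and 153 CPM and then 316, 298, 334 and 354 CPM (log2 1.00, SE 0.14, adjusted p = 1.9e-06). Smaller rises were called for Snx22, opposite the cyclophilin gene Ppib (log2 0.55), and Unc13a, opposite the collagen galactosyltransferase gene Colgalt1 (0.44). In all, 5 of 8 tested rows opposite a gene of the collagen processing list were called higher (median 0.49). By name it was 2 of 14 (median 0.18): the prolyl 3-hydroxylase row P3h1 (log2 2.74, mean 10.8 fragments) and Sparc, a collagen-binding matrix protein (1.85, SE 0.25, adjusted p = 6.4e-07). Sparc held 29.4, 9.34, 22.7 and 31.5 CPM and then 95.4, 27.7, 95.5 and 122 CPM, where loaded mouse 2 stayed within the non-loaded range.

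The general secretory machinery showed the same split between rows. The Gm44170 row, opposite Sec61a1, the channel through which new proteins enter the endoplasmic reticulum, went from 1150.1, 836, 958 and 756 to 2011, 1378, 1668 and 2015 CPM, without overlap (log2 0.93, SE 0.12, adjusted p = 2.1e-07). Opposite-strand rows of the vesicle coat genes Copg1 (Gm26636, log2 0.73) and Copa (Gm37756, 0.45) and of the cargo receptor Surf4 (Surf2, 0.76) were called higher too. That made 6 of 13 rows opposite a gene of the endoplasmic reticulum and secretion list (median 0.45). None of the 18 rows named for such a gene was called in either direction (median -0.094), so the lists differed by how rows were matched.

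For matrix proteins other than collagens, the rows called higher were mostly those opposite a gene as well. They were 6 of 11 such rows (median 0.44) against 1 of 19 by name, Sparc (median 0.0037). The Apol7d row, opposite the fibronectin gene Fn1, held 886, 413, 603 and 542 CPM and then 1188, 891, 964 and 1300.0 CPM. Its loaded limbs were all above the non-loaded ones, the closest being loaded mouse 2 at 891 against non-loaded mouse 1 at 886 (log2 0.87, SE 0.12, adjusted p = 2.6e-06). The 2700060E02Rik row, opposite the basement membrane gene Nid2, went from 32.9, 33.9, 37.8 and 42.7 to 99.0, 86.0, 91.6 and 94.9 CPM (log2 1.33, SE 0.20, adjusted p = 8.6e-06). Rows opposite the thrombospondin gene Thbs3 (Mtx1, log2 0.69), the fibrillin gene Fbn1 (Gm9913, 0.81), the syndecan gene Sdc3 (Gm26716, 0.44) and the tenascin gene Tnc (8030451A03Rik, 0.44) completed the 6. Among rows picked out after their values were seen, Chpf, which extends chondroitin chains (log2 1.83), and the hyaluronan synthase Has1 (1.24) were higher, with means of 12.2 and 22.5 fragments.

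Proteases that cut this matrix were called in 2 of 12 rows by name. Mmp8, a collagenase best known from neutrophils, was at 50.6, 38.5, 42.1 and 69.2 CPM and then 129, 109.7, 165 and 131 CPM (log2 1.42, SE 0.20, adjusted p = 1.9e-06). Adamts4, an aggrecanase, had a log2 change of 1.42 at 12.1 fragments and an adjusted p of 0.0499. Of 10 opposite-strand rows 2 were called, both opposite the versican-cutting protease gene Adamts9, Gm15737 (log2 0.89) and A730049H05Rik (0.79), while the Adamts9 row itself had a change of -0.67 (adjusted p = 0.34).

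In the platelet-derived growth factor family, the rows called were opposite-strand ones. The Gm42802 row, opposite the receptor gene Pdgfra, held 40.0, 23.4, 44.2 and 45.8 CPM and then 81.1, 71.2, 86.3 and 82.5 CPM (log2 1.08, SE 0.22, adjusted p = 0.00069). The row opposite the ligand gene Pdgfa, 6330403L08Rik, went from 34.1, 40.9, 58.2 and 32.6 to 81.1, 86.0, 116 and 59.9 CPM, the lowest loaded limb just above the highest non-loaded one (log2 1.05, SE 0.21, adjusted p = 0.00066). The row named Pdgfa had a change of 0.50 and did not pass (SE 0.17, adjusted p = 0.11). Rows opposite the ligand gene Pdgfc (Gm16000, log2 0.82) and Igfbp7, a secreted binding protein (Polr2b, 0.67), were also called, making 4 of 12 rows opposite the growth factor and axon guidance list. None of 16 rows named for those genes was called.

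In the TGF-beta and BMP family, the Gm37804 row, opposite the ligand gene Tgfb3, was at 121, 117, 139 and 120.1 CPM in non-loaded and 249, 307, 216 and 241 CPM in loaded limbs (log2 1.02, SE 0.15, adjusted p = 4.0e-06). The row opposite the ligand Bmp5, Gm26903, rose by 0.67 (adjusted p = 0.00013). These were 2 of 12 opposite-strand rows, and no row named for a family member was called higher. Fstl3, a follistatin-like activin antagonist, was called lower (-0.66, adjusted p = 0.03), and the row lies opposite Prss57, a serine protease of neutrophils, whose own row had a change of 0.58 (adjusted p = 0.058).

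Of the osteoblast regulators and products, 4 of 13 rows by name were called higher (median 0.49), as were 3 of 7 opposite rows (median 0.44). Runx2, the factor that commits cells to the osteoblast lineage, had a change of -0.27 (adjusted p = 0.55), and the row opposite it, Runx2os1, 0.17 (adjusted p = 0.69). Rows opposite the D-type cyclin genes Ccnd1 (Oraov1, log2 0.77, adjusted p = 6.5e-05) and Ccnd2 (Gm43126, 0.71, adjusted p = 0.00069) were the only 2 of 18 cell cycle rows called.

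Further rows were picked out after their values were seen, for their abundance. The Gm9747 row, opposite the insulin receptor substrate gene Irs1, went from 993, 788, 927 and 915 to 2014, 1926, 2377 and 2009 CPM (log2 1.20, adjusted p = 8.1e-09). The Gm11532 row, opposite the transcription factor gene Sp6, rose by 1.05, Gm26735, opposite the transcription factor gene Sox4, by 0.75, and Psmc3, opposite the zinc transporter gene Slc39a13, by 0.89. The Gm20721 row, opposite the G protein gene Gnas, was the most abundant called row and moved little, from 12112, 10152, 10175 and 9644 to 15867, 12871, 14798 and 15534 CPM (log2 0.49, adjusted p = 0.002).

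Among called rows averaging at least 20 fragments, the 5 with the largest rises were H2-Pb, Ddn, Prkag1, Aph1b and Copg2, of which the first 4 sit beyond the end of a protein-coding gene transcribed towards them from the opposite strand. The H2-Pb row (chr17:34073762-34076167, minus strand), an annotated pseudogene, lies 7077 bases past the end of Col11a2. It held 1.18, 3.50, 2.16 and 10.2 CPM and then 106, 59.3, 65.4 and 71.2 CPM (log2 4.07, SE 0.36, adjusted p = 1.6e-11). The Ddn row (chr15:98803777-98809490, minus strand) lies 9940 bases past the end of Wnt1, a Wnt ligand, and went from 14.1, 72.4, 43.1 and 42.7 to 299, 547, 459 and 399.8 CPM (log2 3.37, SE 0.17, adjusted p = 1.6e-19). Prkag1, 18960 bases past that end, rose by 3.04 (adjusted p = 1.3e-12), whereas the Wnt1 row itself held 0 to 13 fragments and was not tested. Both also lie opposite B130046B21Rik, whose row had a change of -0.067 (adjusted p = 0.85). The Aph1b row (chr9:66775202-66795490, minus strand) lies 8357 bases past the end of the carbonic anhydrase gene Car12 and went from 1.18, 12.8, 10.8 and 7.12 to 254, 139, 374 and 146 CPM (log2 4.76, SE 0.38, adjusted p = 7.0e-07). The Copg2 row, opposite the imprinted gene Mest, held 18.8, 12.8, 36.7 and 32.6 CPM and then 464, 278, 135 and 269.9 CPM (log2 3.39, SE 0.38, adjusted p = 0.00066). Whether these fragments come from the neighbouring gene was not tested.

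Osteocyte genes and textbook load-responsive genes are set against the shares over all tested rows, 3.07% higher and 1.00% lower. Of the osteocyte list, 2 of 10 rows by name were called higher (median 0.19), Dmp1 and Gja1, and 1 of 4 opposite rows, Mybbp1a, opposite the sphingolipid transporter gene Spns2 (log2 0.46). The sclerostin row Sost held 28.2, 30.4, 50.7 and 46.8 CPM in non-loaded and 23.9, 44.5, 37.9 and 14.7 CPM in loaded limbs, lower in mice 1, 3 and 4 and higher in mouse 2 (log2 -0.40, SE 0.34, adjusted p = 0.64). Of 13 tested rows named for a gene on the load-responsive list, Dmp1 alone was called, and of 7 rows opposite one, those opposite Tgfb3 and Tnc. No Wnt ligand row was called among 2 by name and 1 opposite, and Wnt7b held at most 1 fragment. Of the Wnt receptors, inhibitors and targets, 0 of 9 rows by name and 1 of 9 opposite, that opposite Ccnd1, was called. The connexin row Gja1, whose product joins osteocytes, was low at 4.70, 1.17, 2.16 and 10.2 CPM and then 14.3, 4.94, 15.7 and 36.1 CPM and was called (log2 1.97, SE 0.51, adjusted p = 0.015). No clock gene row was called among 7 by name and 7 opposite, and Tnfsf11, the osteoclast factor RANKL, had 0 fragments in every Ctrl library.

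Marker rows of other cell types were summed in each limb beside these rises, and 4 pairs cannot give an exact p below 0.125. Rows opposite smooth muscle and pericyte markers summed to 652 to 824 CPM in non-loaded and 937 to 966 CPM in loaded limbs, with 1 of 4 tested rows called, Gm11946, opposite the contractile gene Smtn (log2 0.50). Rows named for chondrocyte markers summed to 277 to 292 and 303 to 385 CPM. Of these 3 tested rows, Col11a2 was called, and its own mean went from 33.8 to 96.2 CPM, while Col9a1, Matn1 and Matn3 were at 0. Rows named for Schwann and nerve markers summed to 52.9 to 71.2 and 75.1 to 97.1 CPM, with Ncam1 called (log2 1.46) and Cdh19 at 0. Endothelial rows by name summed to 247 to 319 and 286 to 336 CPM, with Stab1 called of 7 tested (log2 0.82). Rows opposite skeletal muscle markers ran from 2195 to 13420 CPM in non-loaded and 1681 to 16500 CPM in loaded limbs, lower in 3 mice and higher in mouse 2, with none of 10 called. The part of these cell types in the rises was not tested.

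Rows that fell with loading were led by rows opposite genes of several functions. The smallest p belonged to Gm14866 (chrX:100736983-100740929, minus strand), opposite the glycerophosphodiesterase gene Gdpd2. It held 797, 681, 754 and 608 CPM in non-loaded and 428, 391, 460.5 and 376 CPM in loaded limbs, all lower (log2 -0.78, SE 0.12, adjusted p = 6.2e-06). The Hps3 row, opposite the ceruloplasmin gene Cp, went from 243, 241, 242 and 176 to 159.8, 155, 149 and 107 CPM (log2 -0.66, SE 0.13, adjusted p = 0.00063). Gm15674, opposite the complement regulator gene Cd55b, was also clear of overlap, at 263, 367, 263 and 429 and then 188, 183, 164 and 218 CPM (log2 -0.79, SE 0.14, adjusted p = 6.8e-05).

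Granulocyte rows followed. The Kcnh7 row (chr2:62693414-63184287, minus strand), opposite Gca, a calcium-binding protein of neutrophils, held 432, 346, 319 and 287 CPM and then 222, 172, 199 and 202 CPM (log2 -0.79, SE 0.13, adjusted p = 5.0e-05). Adgrg3, a receptor of granulocytes, was at 132, 116, 93.8 and 108 and then 62.0, 51.4, 77.2 and 59.9 CPM (log2 -0.85, SE 0.19, adjusted p = 0.0032). The abundant Gm11505 row, opposite Mpo, was at 7917, 4169, 4721 and 2634 and then 3786, 1743, 2740.5 and 2895 CPM. It fell in mice 1, 2 and 3 but not in mouse 4 (log2 -0.75, SE 0.19, adjusted p = 0.043). Its call was lost with DESeq2 in place of edgeR, without ribosomal rows and without mouse as a block. Of the granulocyte list, 2 of 3 opposite-strand rows were lower, summing to 3372 to 9011 CPM in non-loaded and 2420 to 4663 CPM in loaded limbs, down in 3 of 4 mice. By name, 1 of 6 was lower and 1 higher, Mmp8, and 5 of the 6 had a negative change. The 23 rows by name, Mmp8 included, summed to 237 to 360 and 232 to 315 CPM, down in 3 of 4 mice, with Elane at 0.

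Red cell rows also fell on the opposite strand. The Hcn3 row, opposite the red cell pyruvate kinase gene Pklr, was at 72.9, 98.1, 99.2 and 49.9 CPM and then 27.4, 52.4, 35.3 and 38.4 CPM, down in each mouse (log2 -1.04, SE 0.24, adjusted p = 0.0041). The Gm15816 row, opposite the erythrocyte ankyrin gene Ank1, held 335, 598, 562 and 369 and then 253, 408, 351 and 268 CPM (log2 -0.53, SE 0.13, adjusted p = 0.0068). Of 4 tested rows opposite an erythroid marker these 2 were called, and the 5 rows of that list summed to 2488 to 4634 and 2242 to 3761 CPM, down in each mouse, with 1 row at 0. By name, Alas2, which starts haem synthesis, was the 1 of 6 called and it rose (log2 0.54, adjusted p = 0.042), while Apex2, opposite it, had a change of -0.37 (adjusted p = 0.38). The 22 rows by name summed to 458 to 519 and 515 to 568 CPM, up in each mouse.

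Rows opposite B cell markers were lower in loaded limbs too. The Tesk1 row, opposite the B cell receptor partner Cd72, held 90.6, 79.4, 91.7 and 109 CPM and then 79.9, 41.5, 45.8 and 74.5 CPM (log2 -0.64, SE 0.17, adjusted p = 0.02). Rows opposite Cd22, a B cell surface lectin (Gm29439, log2 -0.60), and Pax5, the factor that keeps B cell identity (5730488B01Rik, -0.85), were lower as well, which made 3 of 4. All 3 lost the call with DESeq2 in place of edgeR and with the Ctrl libraries fitted alone. The 6 such rows summed to 207 to 394 CPM in non-loaded and 166 to 225 CPM in loaded limbs, down in each mouse. By name, complement receptor Cr2 was lower (-0.75, adjusted p = 0.0083) and Cd72 higher (0.61, adjusted p = 0.00093), of 4 tested. The 23 rows by name summed to 351 to 410 and 378 to 463 CPM, up in 3 of 4 mice.

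Some of the other rows called lower lay opposite genes of leukocytes or their precursors. Cerkl, opposite the integrin gene Itga4, was at 325, 308, 253 and 285 and then 203, 166, 200.1 and 195 CPM (log2 -0.62, SE 0.13, adjusted p = 0.0022). Tctn1, opposite the proton channel gene Hvcn1, was lower too (log2 -0.50). The row opposite the adhesion gene Vcam1, Gm43109, fell by 0.52, lower in mice 1, 2 and 3 and nearly level in mouse 4 (888, 499, 819.7 and 509 and then 487, 365, 476 and 519.6 CPM), and was the 1 of 2 opposite-strand monocyte rows called. The 18 rows named for monocyte and macrophage markers summed to 458 to 546 CPM in non-loaded and 424 to 519 CPM in loaded limbs, down in each mouse, with none of 6 tested rows called. Rows picked out after their values were seen were those opposite the progenitor factor Myb (Gm26577, -0.53), the mitochondrial iron importer Slc25a37 (Gm31748, -0.53), the red cell skeleton gene Add2 (Gm44089, -0.53) and the leukocyte plastin gene Lcp1 (Gm15629, -0.49). Among rows by name, Ly6e, a small surface antigen, was lower (-1.19, adjusted p = 0.0048), and so was Hsd11b1, which regenerates active glucocorticoid (-1.23, adjusted p = 0.011).

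The 250 bases before the RefSeq starts of Gca (GRCm38.p6, chr2:62664077-62664326, plus strand) and Pklr (chr3:89135892-89136141, plus strand, the first of its 2 entries) are shown. Both genes lie opposite falling rows and were picked by hand, so the letters they hold say nothing about falling rows as a set. The second Pklr entry holds neither motif. Capitals mark TGTGGT or its reverse complement in Gca and GATAA or its reverse complement in Pklr.
Gca: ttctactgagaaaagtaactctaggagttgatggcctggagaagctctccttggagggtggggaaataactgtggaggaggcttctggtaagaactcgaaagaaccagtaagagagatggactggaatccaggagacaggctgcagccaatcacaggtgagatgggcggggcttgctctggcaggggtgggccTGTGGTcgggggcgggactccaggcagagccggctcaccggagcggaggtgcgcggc
Pklr: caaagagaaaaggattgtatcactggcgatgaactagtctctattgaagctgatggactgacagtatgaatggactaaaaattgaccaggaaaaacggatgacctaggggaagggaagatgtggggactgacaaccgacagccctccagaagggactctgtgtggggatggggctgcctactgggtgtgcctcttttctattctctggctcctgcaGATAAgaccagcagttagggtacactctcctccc
RefSeq promoters were matched for 46 of 77 genes of the rows that fell and 148 of 242 genes of the rows that rose. A row counted through the gene or genes opposite it, and through its own gene only where none lay opposite. TGTGGT, on either strand, was in 12 of 55 promoters of genes of falling rows (21.8%) and 18 of 201 of those of rising rows (8.96%). It was in 11.8% of those of all tested rows and 14% of all RefSeq promoters. The shares for GATAA were 21.8% (12 of 55), 10.9% (22 of 201), 15.4% and 22.6%. Differences between these shares were not tested. A match describes letters and not a bound site.

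**Figure D3:**
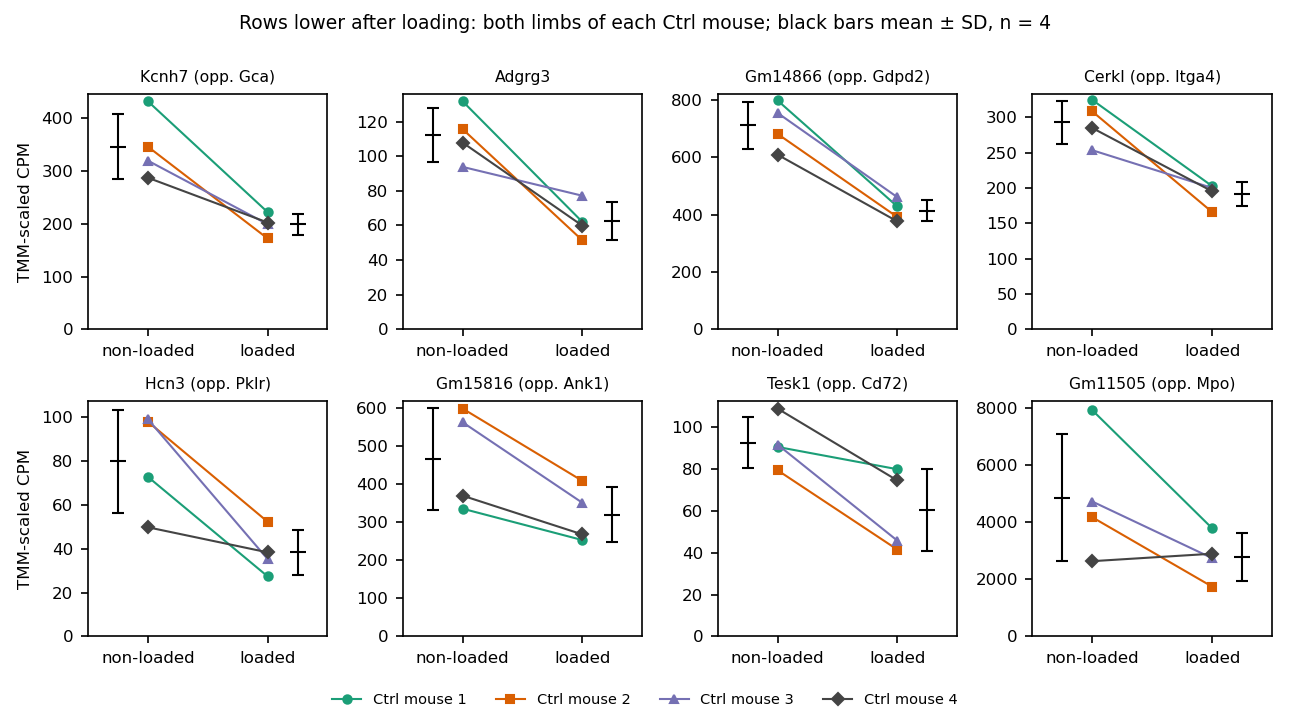
TMM-scaled CPM of 8 rows called lower, with the limbs of each Ctrl mouse joined by a line and the mean ± SD of 4 limbs in black. All lines fall except that of mouse 4 in Gm11505, opposite Mpo, which goes from 2634 to 2895 CPM.

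Where both rows of an overlapping pair were tested, both were seldom called. Of 1296 such pairs, 5 had both rows called, 3 in the same direction and 2 in opposite ones. The Cd72 row was at 214, 181, 184 and 192 CPM and then 311, 255, 266 and 356 CPM, up in each mouse, while Tesk1 across from it went down in each. Hacd4 rose by 0.62 (adjusted p = 0.017) and Focad across from it fell by 0.49 (adjusted p = 0.042). The pairs with a common direction were Col5a1 with each of 2810430I11Rik and Gm13372, and Slc38a10 (1.39) with Gm11769 (0.97).

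Of all called rows, 119 of 221 higher and 5 of 72 lower ones stayed called whichever mouse was left out of the edgeR fit, which then has fewer samples. The rows named above that missed the threshold are listed with the highest adjusted p in brackets. Rising rows were 8030451A03Rik without mouse 2, 3 or 4 (0.11), Adamts4 whichever mouse was left out (0.28), Alas2 without mouse 1, 2 or 3 (0.23), Chpf without mouse 1 or 3 (0.14), Col12a1 without mouse 1 or 4 (0.086), Col6a3 without mouse 1 or 2 (0.17) and Dmp1 without mouse 2 or 3 (0.099). They also included Gja1 without mouse 3 or 4 (0.11), Gm11946 without mouse 2 (0.099), Gm16000 without mouse 4 (0.11), Gm26716 without mouse 2 or 3 (0.21), Gm37756 without mouse 2, 3 or 4 (0.17), Gm9913 without mouse 2, 3 or 4 (0.27) and Hacd4 without mouse 2, 3 or 4 (0.12). The remaining rising rows were Has1 without mouse 2 or 4 (0.11), Mtx1 without mouse 1 (0.06), Mybbp1a without mouse 1 or 3 (0.5), P3h1 without mouse 3 (0.078), Slc38a10 whichever mouse was left out (0.26) and Unc13a without mouse 2, 3 or 4 (0.13). Falling rows were 5730488B01Rik without mouse 1, 3 or 4 (0.24), Adgrg3 without mouse 2 (0.068), Cerkl without mouse 2 (0.065), Cr2 without mouse 2 or 3 (0.074), Focad whichever mouse was left out (0.29), Fstl3 without mouse 1, 2 or 3 (0.32) and Gm11505 without mouse 1, 2 or 3 (0.26). They also included Gm15629 without mouse 1, 2 or 3 (0.35), Gm15816 without mouse 2 or 3 (0.096), Gm26577 without mouse 1 or 2 (0.2), Gm29439 without mouse 1 or 4 (0.27), Gm31748 without mouse 2 or 3 (0.14), Gm43109 without mouse 1 or 3 (0.18) and Gm44089 without mouse 1, 2 or 3 (0.15). The remaining falling rows were Hcn3 without mouse 3 (0.084), Hsd11b1 without mouse 2 or 4 (0.15), Ly6e without mouse 2 (0.069), Plet1os whichever mouse was left out (0.23), Tctn1 without mouse 1 or 2 (0.072) and Tesk1 without mouse 2 or 3 (0.19). Rows opposite Phospho1, Smpd3, Slc13a5, Col5a1, Fkbp10, Plod2, Sec23a and Sec61a1 and the Col1a1, Col1a2, Ibsp and Sparc rows stayed called whichever mouse was left out.

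**Figure D4:**
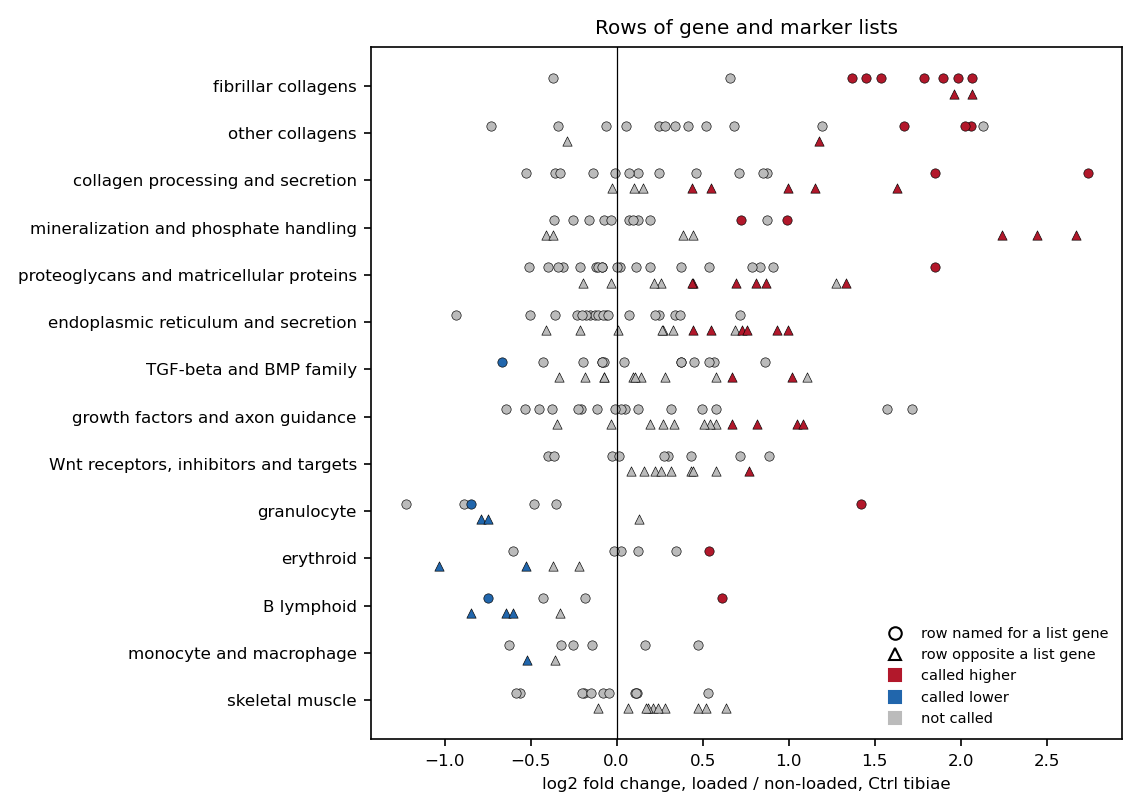
Log2 fold change, loaded over non-loaded, of each tested row of 14 lists, as circles for rows named for a list gene and triangles for rows opposite one. Matrix lists have red points (called higher) and the called points of the blood cell lists are mostly blue (called lower), and in the secretion list red points are triangles only.

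The loading response was set against that of NT3-Cre+ tibiae by an interaction term. It called 10 of 7192 rows (0.139%), and 472 had an unadjusted p under 0.05. All 10 were rows called higher in Ctrl, with a larger rise in Ctrl than in NT3-Cre+. The Ibsp row rose by 0.99 in Ctrl and had a change of -0.12 in NT3-Cre+ (difference 1.10, SE 0.22, adjusted p = 0.012). The Gm26840 row, opposite the matrix protein gene Vwa1, went from 45.9, 42.0, 38.8 and 29.5 to 120.5, 83.0, 90.3 and 96.0 CPM in Ctrl (log2 1.32) and had a change of -0.31 in NT3-Cre+ (difference 1.63, SE 0.29, adjusted p = 0.0021). For Abi3, opposite Phospho1, the changes were 2.44 and 1.39 (difference 1.06, SE 0.16, adjusted p = 0.00016), and for Col1a2 1.79 and 0.65 (difference 1.13, SE 0.25, adjusted p = 0.046). The Gm20444 row, opposite the secreted protein gene C1qtnf5 and Mfrp, had 1.95 and 0.34 (difference 1.61, SE 0.24, adjusted p = 0.00016). The other 5 lay opposite Col5a1 (2 rows), Chn1, Fkbp10 and Smpd3. Col1a1 differed by 0.87 (SE 0.24, adjusted p = 0.17) and Ddn by 0.39 (adjusted p = 0.9), neither past the threshold.

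Over the 221 rows called higher in Ctrl, 199 also moved upward in NT3-Cre+ with a median of 0.40, and over the 72 lower rows 58 moved downward with a median of -0.17. These rows were chosen by their change in Ctrl, so the smaller medians in NT3-Cre+ are a description only. The peak force differed between the genotypes, so force and genotype cannot be told apart in this difference.

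**Figure D5:**
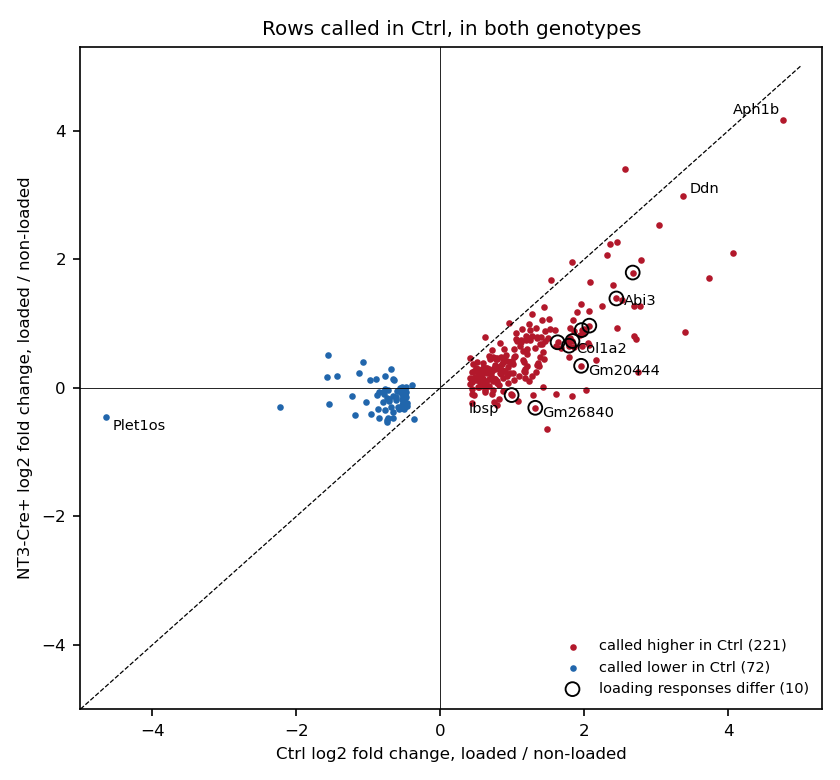
Log2 fold change, loaded over non-loaded, in Ctrl against that in NT3-Cre+ for the 293 rows called in Ctrl, with the line of equal change dashed. Circles mark the 10 rows whose responses differed by the interaction test, all below the line.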

How the data were processed

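RNA depleted of ribosomal RNA was sequenced from 16 tibiae as single reads, per the labels' protocols. The counts are the authors' deposited raw fragment counts per gene name, 47517 rows a library; STAR 2.4.2a, featureCounts 1.4.6 and the mouse build mm10 are named in the submitters' processing notes. The sources used here give neither annotation release nor strand setting. The mean RNA integrity number was 5.4, per the labels' protocols.

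Rows passing edgeR's filterByExpr (minimum count 10) were fitted in edgeR 4.0.16 (R 4.3.3) with TMM scaling, robust quasi-likelihood dispersion, mouse as a block and loading within genotype. F tests gave the Ctrl response and its difference from NT3-Cre+; p-values were Benjamini-Hochberg adjusted over 7192 rows, and the SE is the log2 change over the square root of F. The fit was tested on simulated data. A row's chromosome position came from GENCODE annotation of GRCm38 by symbol: 45250 rows matched, 611 more by an older symbol, and 1656 did not. Overlap of 20 bases counted as opposite; with 75 bases, 146 higher and 52 lower rows remained opposite a gene, of 151 and 54.

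The design text pairs the limbs by mouse. Within-group deviations of the 2 limbs correlated with r of 0.135, 0.178, 0.154 and 0.045 in mice 1 to 4, where the highest r with another mouse was 0.157 for mouse 4. No pair of replicate libraries agreed within sampling noise (chi-square per degree of freedom 3.93 to 13.4 for Ctrl pairs and 3.78 to 17.9 for NT3-Cre+ pairs). At 852831 to 1064391 fragments a Ctrl library, counting error leaves rows of 20 fragments or fewer imprecise.

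Named rows are the 15 smallest adjusted p in each direction (mean of at least 20 fragments, same direction in all 4 mice), up to 4 called rows per list and direction (with none called, 2 were eligible), a fixed set of bone genes, the 5 largest changes in each direction and the 10 smallest interaction p. The members and lists were chosen with earlier results of these data known. Alternatives tried were DESeq2 1.42.0, its size factors in edgeR, other count filters, no ribosomal rows, no block, Ctrl libraries alone, a marrow covariate and each mouse left out; leaving out NT3-Cre+ mice was added after seeing the data. Promoter sequences are from RefSeq on GRCm38.p6. Results for some named rows are not reported here.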

Additional observations from a re-analysis of the deposited data

Results flagged for a closer look

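The loading response differed between Ctrl and NT3-Cre+ in 10 rows, by edgeR's interaction test with Benjamini-Hochberg adjustment. The difference, Ctrl minus NT3-Cre+ on the log2 scale, was 1.06 for Abi3 (adjusted p = 0.00016), 1.61 for Gm20444 (0.00016), 1.10 for 2810430I11Rik (0.00061), 1.07 for Gm13372 (0.0021), 1.63 for Gm26840 (0.0021) and 0.92 for Nt5c3b (0.0021). It was 1.10 for Ibsp (0.012), 1.11 for Chn1os3 (0.018), 1.13 for Col1a2 (0.046) and 0.88 for Prmt7 (0.046). In all 10 the rise was larger in Ctrl.

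A limb stood apart from the other 3 of its group by Dixon's criterion (0.829 for 4 samples) in 6 of 190 group tests, and chance flags about 1 in 20. Non-loaded mouse 1 was high for Gm16000, at 57.6 CPM against 50.9 for the next limb, and for Gm26636, at 302 against 251. Loaded mouse 2 was low for Gm26636, at 353 against 457. Gp1ba was low in non-loaded mouse 1, at 52.9 against 69, and in loaded mouse 4, at 35 against 65.2. Hps3 was low in non-loaded mouse 4, at 176 against 241.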

How the results depend on the processing

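Counts are given as higher, lower and differing between genotypes, against 221, 72 and 10. Size factors of DESeq2 in edgeR gave 222, 70 and 10, removal of ribosomal rows 231, 69 and 12, a minimum count of 30 212, 70 and 12, and Ctrl libraries alone 225 and 61. No filter gave 180, 46 and 17. DESeq2 gave 148, 21 and 10. Rows named above that lost their call with DESeq2 included Adamts4, Alas2, Col12a1, Gja1 and Mybbp1a among rising rows. Among falling rows they included 5730488B01Rik, Fstl3, Gm11505, Gm29439, Gm43109 and Tesk1. Without the replicate block there were 152, 19 and 0. Leaving out each mouse gave 146 to 251, 17 to 85 and 7 to 14. Rows called higher made up 75.4% of calls, 87.6% by DESeq2, 88.9% without the block and 89.6% without Ctrl mouse 2. In each of these settings the fitted called rows kept their direction. With a marrow covariate (27 marker rows, 6.307 to 6.515 in non-loaded and 6.127 to 6.191 in loaded limbs) 10 and 5 rows were called. Of the 10, 9 were among the 221, and none of the 5 was among the 72. In that fit 205 of 221 and 64 of 72 kept their direction. Loading accounted for 94.1% of the covariate's variation within mice, and the median SE of the rising rows went from 0.19 to 0.598, so covariate and loading can hardly be separated. Changes that reversed with the covariate were Fam20c (-0.39), Gm2670 (-0.34), Gm43109 (0.17), Hcn3 (0.30), Mepe (0.27), Mybbp1a (-0.57), Myh1 (1.47), Ncam1 (-0.085), Plin4 (0.51), Runx2os1 (-0.31), Scx (-0.17) and Wnt2b (-0.29). Leaving out each Ctrl mouse, the ranges that crossed 0 were -1.27 to 0.071 for Gm12167 (reversed without mouse 1), -0.10 to 0.036 for Mepe (mice 2 and 3), -0.27 to 0.17 for Scx (mouse 2), -0.081 to 0.54 for Tcf7 (mouse 3), -0.34 to 0.098 for Gp1ba (mouse 4) and -1.24 to 0.042 for Myh1 (mouse 4). The cause of these shifts was not tested. At this depth, absence of a call for a row of few fragments is no sign of an unchanged gene.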
